A study of Mus musculus with 12 samples.

Results

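The genes described here were the ribosomal protein genes, picked by name to serve as a housekeeping reference in 3 insertion screens. Of the 20409 genes counted in the screens, 85 had a symbol that starts with Rpl or Rps, with or without a further p, and goes on with a digit, once the Rps6k kinases were set aside. By textbook knowledge 43 of them encode proteins of the large subunit, 30 encode proteins of the small subunit and 3 (Rplp0, Rplp1 and Rplp2) encode the P stalk, which recruits translation factors. The other 9 share the name pattern but are not textbook subunit genes. The name rule uses no measured value, although earlier results of these data were known when it was chosen. The genes Rpsa and Fau also encode ribosomal proteins, and their symbols fall outside the pattern.

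ORFtag is a tagging method in which a retroviral cassette lands at random in the genome. Its PGK promoter drives a NeoR resistance gene followed by the tag and a splice donor, so the tag becomes joined to the exons of the gene that lies downstream on the same strand. All 12 libraries came from wild-type mouse embryonic stem cells that had been transduced with such cassettes and selected with G418. The activator screen used a clonal line with the 7xTetO-pMYLPF-Puro-IRES-GFP reporter at a locus on Chr15, a TetR tag, and a sort for cells with GFP. The repressor screen used a clonal line in which pEF1-BFP-7xTetO-pPGK-Puro-IRES-GFP stood at the same locus, a TetR tag, and a sort for cells that had lost GFP. The third screen, for regulators that act after transcription (PTGR, post-transcriptional gene regulators), used a clonal line with a randomly integrated Puro-IRES-GFP-10xBoxB reporter and a λN tag. Its cells went through repeated sorts for low GFP with growth in between, then Cre removed the boxB sites, and cells that regained GFP were sorted last. Each screen thus rests on 1 clone. For each screen there were 2 sorted and 2 unsorted libraries. The labels give replicates only as numbers, and the methods call them biological replicates from independent transductions. With 2 libraries a group and 1 clone a screen, p-values that use replicates measure at most the spread between transductions of that clone. Of the insertion positions in repressor sorted replicate 1, 18.8% over all genes were also listed in sorted replicate 2. How separate these 2 libraries are is therefore not known.

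The measurement was the number of distinct insertion positions assigned to each gene, at most 200 kb upstream of the exon to which the tag could be spliced. The sorted libraries held 14705 to 60980 such insertions and the unsorted libraries held 54088 to 233799, of which 31 to 316 and 298 to 1225 lay at ribosomal protein genes. The 6 unsorted libraries together, called the background, held 1022126. As a check of the labels, Yap1, Zfp57 and Cnot9 passed the enrichment test in the activator, repressor and PTGR screen, respectively, and in no other screen. A few positions were listed in more than 1 library of a screen, up to 30.2% of the member positions of a sorted library, and they were counted in each. Positions are not independent cells or molecules, so intervals on counts cover counting error only.

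Ribosomal proteins build the particle that makes every other protein. The small subunit reads the mRNA, and the large subunit joins amino acids and holds the exit tunnel. Most of these proteins are needed for growth, their genes are short and strongly transcribed, and several carry small nucleolar RNAs in their introns. None of them is known as a sequence-specific transcription factor, although a few have roles away from the ribosome.

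The sequences below are splice acceptors of the members with the most background insertions inside the gene or at most 2 kb upstream of it, apart from Rps14. Each is the acceptor to which the largest number of those insertions of its gene were assigned, in Rps23rg1 only 92 of 202. Splicing itself was not measured in these libraries. The acceptors are shown because the tag can enter a protein only through such a site. Each run holds the last 20 bases of the intron in lower case and the first 10 bases of the exon in capitals, read 5′ to 3′ on the strand of the gene from RefSeq's GRCm38 genome (mm10).
Rps23rg1, chr8:3577821-3577850, plus strand: gttttactttttacatacagGTCTAGCTCG
Rpl39, chrX:37084079-37084108, minus strand: ctggttgcatctcctcgtagTCTTCTCACA
Rps4x, chrX:102188362-102188391, minus strand: actttgaaaacttcttccagGCTCGTGGTC
Rpl3, chr15:80082573-80082602, minus strand: gatctctccctttacctcagTCTCACAGGA
Rps20, chr4:3835282-3835311, minus strand: tcccgcctgggtgataacagGCATTTAAAG
Rpl10, chrX:74270959-74270988, plus strand: ctttgactgtttcattacagCCACCGACGA
Rpl36a, chrX:134586058-134586087, plus strand: ctgtacactattcttactagGTGAACGTGC
Rpl5, chr5:107901850-107901879, plus strand: attttttttttcctttaaagGGGTTTGTGA

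In all 8 the exon was exon 2 of the annotated transcript, except in Rps23rg1, where it was exon 3. The intron ended in AG before exon 2 in 85 of 85 members and in 99.6% of the 19221 genes with a second exon. The median share of pyrimidines in the 18 bases before the AG was 77.8% in members and 77.8% over all genes. The printed Rpl39 acceptor took 68 of the 79 background insertions of that gene, which encodes a short protein lining the exit tunnel. The Rpl3 acceptor took 488 of 495, and the Rpl5 acceptor 95 of 100. The Rps23rg1 acceptor took only 92 of 376, all of them inside the gene or at most 2 kb upstream.

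Nearly all ribosomal protein genes were reached by the cassette. At least 1 background insertion was found at 83 of 85 members (97.6%, 95% Wilson interval 91.8 to 99.4), against 89.5% of all genes. At least 3 were found at 81 members (95.3%), against 78.8% of all genes. The median was 30 insertions per member (quartiles 11 and 65), against 15 over all genes (quartiles 3 and 52). Over 100 insertions were found at 12 members (14.1%), a share close to the 14.5% of all genes. All these shares are descriptions, and the difference from other genes was not tested.

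Insertions were spread very unevenly among the members, from 0 to 495. The 10 members with the most held 3053 of 5612 background insertions (54.4%), and 55 members had at least 1 insertion in each of the 6 unsorted libraries. The order was led by Rpl3 (chr15:80077791-80091868 in mm10, minus strand), which encodes a protein close to the peptidyl transferase centre, with 495 insertions. Per 10000 insertions of a library, Rpl3 had a lowest value of 4.19, a median of 4.76 and a highest value of 5.99 (mean 4.88 ± 0.622 SD, n = 6). Next came Rps27a (chr11:29545846-29548109, minus strand), which is made as a fusion to ubiquitin, with 489 insertions and a mean of 4.65 ± 0.622 per 10000 (SD, n = 6, range 3.70 to 5.19). These neighbours in the order differed by less than their spread between libraries. Rps23rg1 (chr8:3567990-3584939, plus strand), a retrogene derived from Rps23, had 376 insertions (3.62 ± 0.644 per 10000). Rpl38 (chr11:114668524-114672331, plus strand), known for its part in the translation of Hox mRNAs, had 359 (3.67 ± 0.620), so this pair did not differ beyond its spread either. Rps21 had 281 and Rpl19 244 insertions. They were followed by Rps14 with 226, Rpl27a with 206, Rpl23 with 196 and Rpl11 with 181, which overlapped in their ranges per 10000 over the libraries. Rpl11 stood at 1.20 and 1.16 per 10000 in the unsorted activator libraries and at 1.78 to 2.31 in the other 4.

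**Figure D1:**
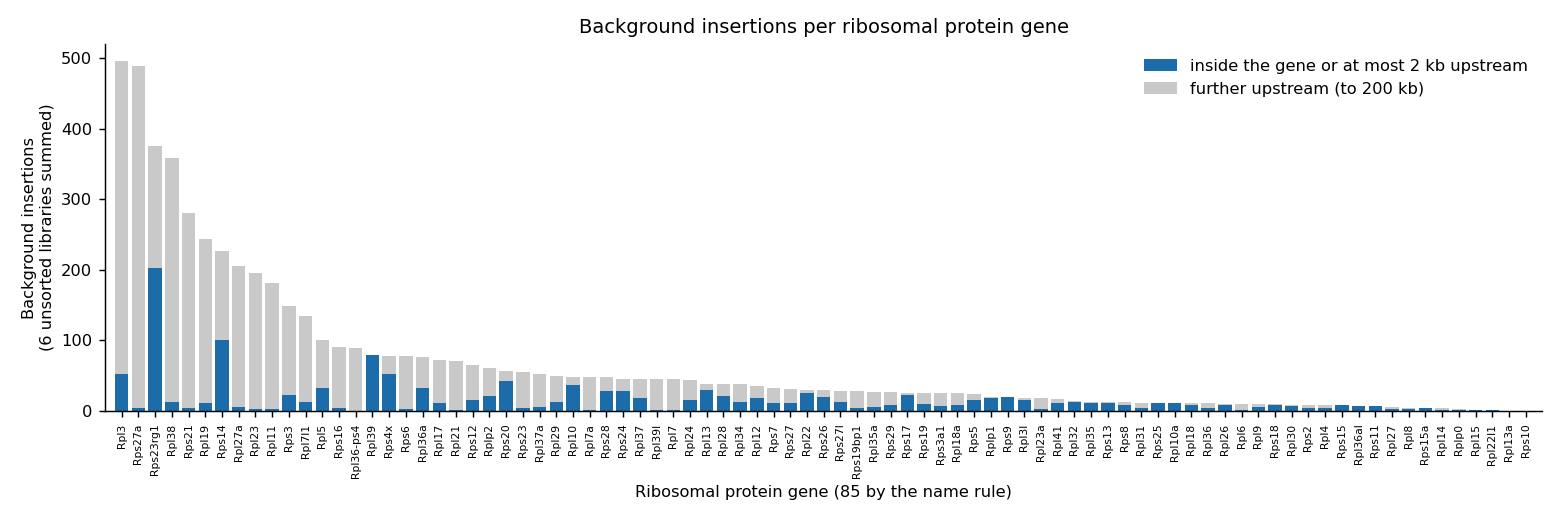
Bars give the number of background insertions (6 unsorted libraries summed) at each of the 85 ribosomal protein genes, with insertions inside the gene or at most 2 kb upstream in blue and those further upstream in grey. Rpl3 and Rps27a lead with 495 and 489 insertions, almost all of them grey, whereas all 79 insertions of Rpl39 are blue.

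The 2 members with no background insertion were Rps10, a small subunit protein, and Rpl13a, a large subunit protein known from the interferon response as well. They had 0 of 1022126, which allows up to 3 insertions. With the strand of each insertion reversed, Rpl13a was assigned 12 insertions and Rps10 still 0. Neither had a sorted insertion in any screen.

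The genes matched by name that are not textbook subunits covered the same range. Besides Rps23rg1, Rpl7l1, a relative of Rpl7, had 134 insertions and the annotated Rpl36-ps4 had 90. The paralogs Rpl39l, Rps27l and Rpl3l had 45, 29 and 19. Rps19bp1, a binding partner of Rps19, had 28, while Rpl36al had 7 and Rpl22l1 only 2. Among ribosomal protein genes outside the name rule, Rpsa had 7 background insertions and Fau had 4. All of these lay inside the gene or at most 2 kb upstream.

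The members differed from the average gene in structure and in where their insertions lay. Their median span was 3368 bp and their median number of exons 5, against 19478 bp and 8 over all genes. In 21 of 85 members (24.7%) the coding part of exon 1 was exactly the start codon, against 1.45% of genes with a second exon. Exon 1 held at most 1 residue in 53 members (62.4%), against 37.7%. Fusion at exon 2 would therefore leave out at most 1 residue of the annotated protein in most members, whereas the median over all genes was 15.7 residues. A small nucleolar RNA lay within the span of 29 members (34.1%), against 1.21% of all genes.

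Most insertions lay outside the genes. Only 864 of 5612 background insertions (15.4%) were inside the annotated member, against 29.3% over all genes. Over 50 kb upstream of the gene lay 2217 (39.5%), against 29.5%. This class leaves out insertions inside a gene, however far they lie from the acceptor. The median distance to the assigned exon was 30882 bp at members and 31786 bp over all genes. The larger share over 50 kb upstream rests on 6 members, chosen after their values were seen (Rps27a, Rpl3, Rpl38, Rpl19, Rpl27a and Rpl11), which held 1637 of the 2217. In the other 79 members the share was 15.9%, and 52 of them had no insertion so far away. That 15.9% is not comparable with the 29.5%, from which no genes with many such insertions were left out. Per length, however, the members were dense in insertions, with 22.3 inside per 10 kb of span against 2.82 over all genes. The 2 kb upstream held 5.96 insertions per member against 2.78 per gene. It held more in the lists of translation factor genes (8.38 per gene) and ribosome assembly genes (7.37 per gene) described below. Inside or at most 2 kb upstream there were 1371 insertions (24.4%) at members, and 82 of 85 members had at least 1 (96.5% against 76.7% of all genes). Exon 2 was the assigned exon for 90.5% of insertions at members and 83.6% over all genes.

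Insertions far from a member often lay within another gene. Of the 4241 that were neither inside the member nor within 2 kb upstream, 1529 (36.1%) lay inside another protein-coding gene, against 27.4% for all genes. The share was 45.4% at large subunit genes, 27.4% at small subunit genes and 18.9% at members that are not textbook subunit genes. A few large subunit genes held many of these insertions. Of all insertions outside the member, 224 of Rpl3, 173 of Rpl27a, 159 of Rpl23 and 115 of Rpl19 lay inside another gene. Lasp1 held 151 of the 196 insertions assigned to Rpl23 (77.0%). Stk33 held 135 of the 206 assigned to Rpl27a (65.5%), and Acer2 held 52 of the 78 assigned to Rps6 (66.7%), the small subunit protein phosphorylated by the S6 kinases. Rps27a had no insertion inside the gene and 5 at most 2 kb upstream. All but 5 of its 489 would thus need splicing over more than 2 kb to tag it, and splicing was not measured in these libraries. By contrast, all 79 insertions of Rpl39 were inside the gene or at most 2 kb upstream, as were 37 of the 48 at Rpl10, a protein added late in the assembly of the large subunit.

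Both orientations of the cassette were found at members about equally often in the background. The sense assignment took 49.1% of sense and reversed insertions at members (95% Wilson interval 48.2 to 50.1), against 50.2% (50.2 to 50.3) over all genes. At most 2 kb from the acceptor the sense share was 48.1% (45.9 to 50.2), from 2 to 50 kb it was 49.2% (47.7 to 50.6), and beyond 50 kb it was 49.6% (48.2 to 51.1). In the PTGR screen the sorted libraries had sense shares of 54.6% (50.4 to 58.8) and 53.1% (49.1 to 57.1) at members. The unsorted ones had 49.0% (47.1 to 51.0) and 45.7% (41.9 to 49.5), so the sorted values lay above both. Over all genes the same PTGR libraries had shares between 50.1% and 50.5%. The sorted activator libraries had 54.7% (47.0 to 62.3) and 38.4% (29.9 to 47.6) at members, on either side of their unsorted pair at 50.2% and 50.7%, while all genes had 51.3% and 52.6% in the same sorted libraries. The sorted repressor libraries had 56.0% (47.0 to 64.7) and 51.7% (39.3 to 63.8), against 46.5% and 50.2% unsorted, and all genes had 55.1% and 54.2% in the sorted ones. With 2 libraries a group, these differences were not tested.

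The first comparison asked how steady the members were without selection. Together they took 58.2 and 56.8 of each 10000 insertions in the unsorted activator libraries, 52.4 and 55.2 in the unsorted repressor libraries, and 52.4 and 55.1 in the unsorted PTGR libraries. The mean was 55.0 ± 2.31 per 10000 (SD, n = 6), and the libraries made with different tags overlapped. In counts, 0.549% of the background lay at 0.416% of the genes. No member differed between the 2 unsorted PTGR libraries and the 4 unsorted libraries with the TetR tag by edgeR's quasi-likelihood test, with 0 of 32 members tested called against 0.199% of all tested genes called higher and 0.0544% called lower in PTGR. The same held for DESeq2, with 0 members. At an unadjusted p under 0.05 there were 3 members of 32 (9.38%), against 10.4% of all genes tested. Rps21 had 2.01 and 1.66 insertions per 10000 in the unsorted PTGR libraries and 2.79 to 3.28 in the TetR libraries (log2 fold change -0.66, edgeR adjusted p = 0.371). Rps6 had 1.07 and 1.29 against 0.287 to 0.819 (0.86, edgeR adjusted p = 0.459). Rps12, a small subunit protein named for this value, had 0.727 and 2.22 against 0.285 to 0.689 (1.20, edgeR adjusted p = 0.371). These were the 3 members with an unadjusted edgeR p under 0.05, so groups that lie apart follow from the choice. The adjusted tests did not pass. How many of all genes had groups without overlap was not computed. The tag, the cell line and the reporter changed together in this comparison and cannot be told apart.

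The second comparison, in each screen, asked whether tagged ribosomal proteins moved the reporter enough to be enriched by the sort. None of them passed the test, which asked for a log2 odds ratio of 1 or more and an adjusted p (Benjamini-Hochberg) below 0.001. The 3 screens share 1 background, so their values are not independent. With replicates summed and Fisher's exact test run one-sided, the activator sort enriched 0 of the 12 members with at least 3 sorted insertions. The repressor sort enriched 0 of 9, and the PTGR sort 0 of 45. The shares of all tested genes called were 4.64%, 8.18% and 0.666%. At an unadjusted p under 0.05 there were 0, 0 and 3 members, against 9.68%, 14.7% and 10.6% of all genes tested, and edgeR and DESeq2 also called 0 members in each screen. A member with few background insertions had little chance of being tested. The median number of sorted insertions expected from the background was 0.942 per member in the activator, 1.10 in the repressor and 3.51 in the PTGR screen.

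After the activator sort, 44 of 85 members had an insertion. Rpl3 had the most, with 12 and 7 in the sorted libraries against an expected 15.5 in all (log2 odds ratio 0.29 ± 0.34 SE). Rps23rg1 had 6 and 3 against 11.8. Rps21 had 5 and 3 against 8.83. Rps27a had 7 and 1 against 15.4 (log2 odds ratio -0.94 ± 0.51 SE), and its replicates differed widely. Rpl5 and Rpl11 bind the smallest rRNA of the large subunit and, when free, the p53 regulator Mdm2. Rpl5 had 0 and 0 sorted insertions where 3.14 were expected, and Rpl11 had 3 and 2 where 5.68 were expected. Over the 54 members with at least 20 summed insertions the median log2 odds ratio, with 0.5 added to each count, was -0.22, against -0.43 over all genes so filtered. For a decrease (adjusted p below 0.05), 0 of these 54 passed Fisher's test, as did 0% of all genes. At an unadjusted p under 0.05 there were 2, against 6.49% of all genes.

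In the repressor screen, 32 members had a sorted insertion and Rpl3 was called lower, the single member so called in the 3 screens. It had 4 and 1 sorted insertions where 18.1 were expected from 495 in the background. Both replicates lay below expectation, with log2 odds ratios of -1.43 and -2.88, and the sum gave -1.86 ± 0.65 SE (Fisher's exact test for a decrease, adjusted p = 0.0229). Of all genes tested for a decrease, 2.91% were called in this screen, and 1 of 54 members is close to that share. At an unadjusted p under 0.05 there were 6 of the 54, against 16.3% of all genes. The call was lost when the totals left out the insertions at the screen's hits (log2 odds ratio -0.76, expected 8.45) and in each sorted replicate alone. In edgeR, which scales by TMM, Rpl3 had a log2 fold change of -1.03 (adjusted p = 0.407). Rps27a had 11 and 8 sorted insertions against 17.9 in the Fisher comparison, whose totals include the hits. All expected counts fall when hits are left out, as for Rpl3, whose background of 495 is close to the 489 of Rps27a. On that scale Rps27a lay above expectation. The edgeR fold change of Rps27a was 0.96 on the log2 scale (edgeR unadjusted p = 0.0215, adjusted p = 0.160). Rps23rg1 had 9 and 3 against 13.8, and Rpl27a 6 and 2 against 7.55. Rps14 had 0 and 1 against 8.28 (Fisher's exact test, adjusted p = 0.0651). Rpl11 had 1 and 0 against 6.64. The median log2 odds ratio of the 54 members was -0.96, beside -0.85 over all genes.

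In the PTGR screen, with the deepest sorted libraries, 66 members had a sorted insertion and the leading members followed the background closely. Rpl3 had 27 and 29 sorted insertions against an expected 57.9 (log2 odds ratio -0.05 ± 0.20 SE). Rps27a had 21 and 29 against 57.2 (-0.19 ± 0.21 SE), and Rpl38 had 25 and 24 against 42.0 (0.22 ± 0.22 SE). Rps23rg1 had 24 and 21 against 44.0. These replicates lay close to each other and to expectation. Rpl11 had 17 and 10 against 21.2, Rpl5 had 4 and 5 against 11.7, Rps6 had 9 and 3 against 9.12, and Rpl10 had 2 and 1 against 5.61. The median log2 odds ratio of the 55 members with at least 20 summed insertions was -0.05, beside 0.00 over all genes.

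The PTGR members farthest from expectation were chosen after their values were seen. Rpl22, a large subunit protein with the paralog Rpl22l1, (chr4:152325742-152334071, plus strand) had 9 and 2 sorted insertions where 3.51 were expected, with a log2 odds ratio of 1.65 ± 0.51 SE (Fisher's exact test, adjusted p = 0.123). Rpl37a had 11 and 3 where 6.08 were expected (1.20 ± 0.43 SE, Fisher's exact test, adjusted p = 0.219). In both, 1 replicate held most of the insertions. In the other direction Rpl7l1 had 4 and 1 where 15.7 were expected (-1.65 ± 0.66 SE, Fisher's exact test for a decrease, adjusted p = 0.247), and 0 of 55 members passed, against 0.482% of all genes. At an unadjusted p under 0.05 there were 4 of the 55, against 7.17% of all genes.

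**Figure D2:**
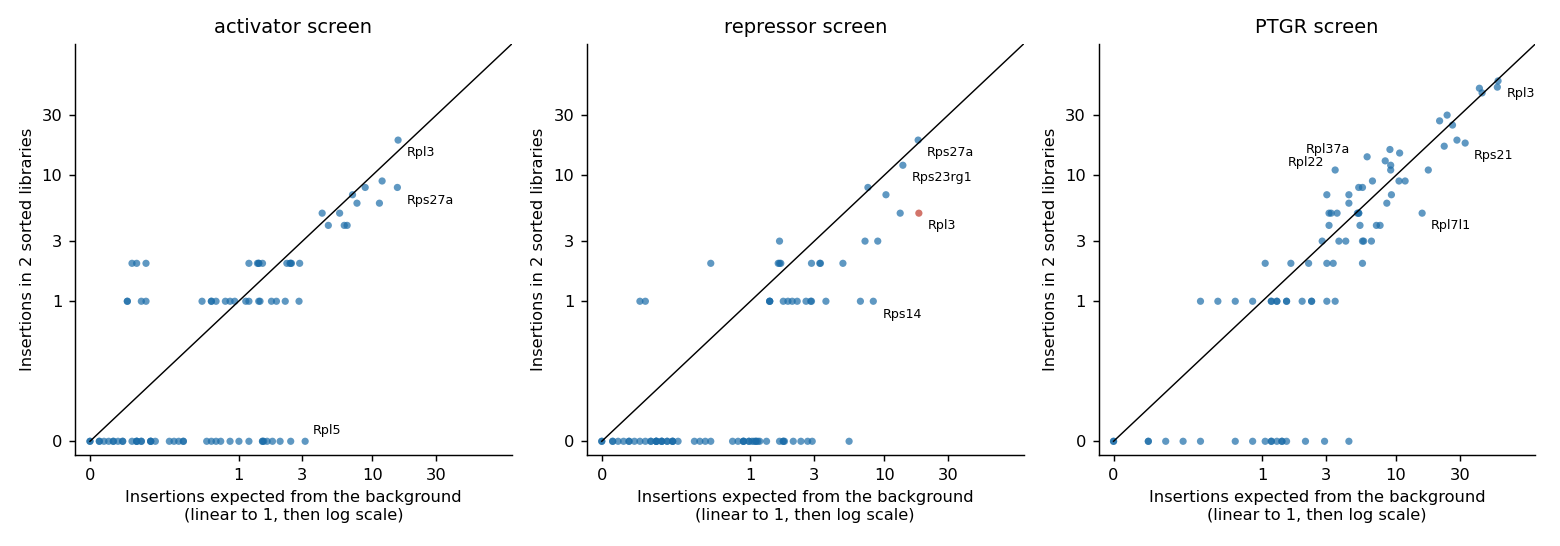
Each point is 1 of the 85 ribosomal protein genes, with the insertions expected from the background on the x axis and the insertions in the 2 sorted libraries on the y axis; both axes are linear up to 1 and logarithmic above, and the line marks equality. Rpl3 in the repressor screen (red, 5 insertions against 18.1 expected) is the only member called; in the PTGR screen Rpl3 lies on the line with 56 against 57.9.

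Against the spread between replicates, edgeR tested only members with enough insertions, which left 15 for the activator, 13 for the repressor and 10 for the PTGR comparison, and called 0 in each. The shares of all tested genes called higher in sorted cells were 4% (activator), 7.2% (repressor) and 2.24% (PTGR), and those called lower were 0.0667%, 1.15% and 0.236%. At an unadjusted p under 0.05 edgeR had 0, 2 and 0 members, against 330 of 2998, 558 of 2779 and 103 of 1696 genes tested. The difference of the sorting effect between screens was tested per gene as well, with 12 members. It called 0 members for activator minus repressor (8.21% of all genes), 0 for activator minus PTGR (3.93%) and 0 for repressor minus PTGR (6.46%), and at an unadjusted p under 0.05 there were 2, 0 and 0.

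As a group, the members took a smaller share of the sorted than of the unsorted libraries in the activator and repressor screens, and this depended on the total. They took 50.0 and 29.2 of each 10000 insertions in the sorted activator libraries and 29.2 and 20.4 in the sorted repressor libraries, all below the lowest unsorted library (52.4). In the sorted PTGR libraries they took 48.4 and 54.0. The log2 odds ratio of the sums against the background was -0.44 (95% interval -0.69 to -0.19) in the activator, -1.10 (-1.40 to -0.81) in the repressor and -0.10 (-0.22 to 0.02) in the PTGR screen. Hits, the genes enriched in the same screen and none of them a member, held 22.6% and 48.0% of the sorted activator libraries, 54.9% and 54.6% of the sorted repressor libraries and 5.33% and 4.80% of the sorted PTGR libraries. With those insertions left out of the totals, the members took 64.6 and 56.3 per 10000 in the activator, 64.7 and 44.9 in the repressor and 51.1 and 56.7 in the PTGR screen. The log2 odds ratios were then 0.15 (-0.10 to 0.40), 0.0027 (-0.29 to 0.29) and -0.04 (-0.16 to 0.08). Sorted and unsorted libraries overlapped on that scale in every screen.

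**Figure D3:**
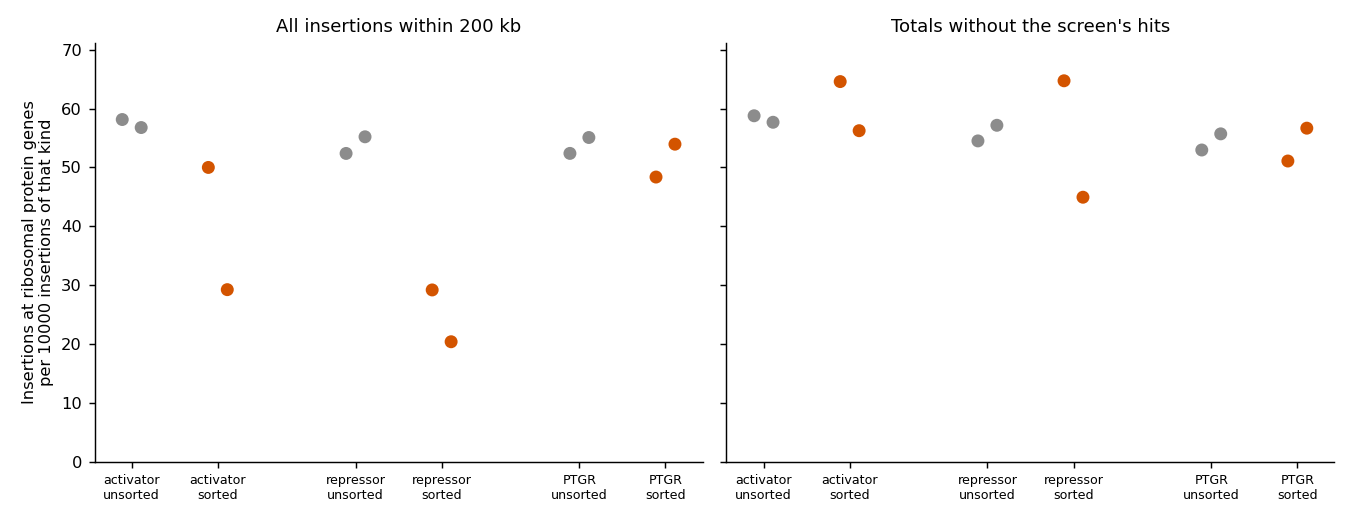
Points give the insertions at the 85 ribosomal protein genes per 10000 insertions in each of the 12 libraries (grey unsorted, orange sorted), with all insertions in the total on the left and without those at the hits of the same screen on the right. On the left the sorted activator and repressor libraries lie at 20.4 to 50.0, below the unsorted ones at 52.4 to 58.2; on the right sorted libraries lie from 44.9 to 64.7, around the unsorted ones.

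Insertions at the genes themselves were also compared. This split was chosen after the data were seen. It counts insertions inside the gene or at most 2 kb upstream, as a share of all such insertions away from hits. Each library leaves out the hits of its own screen. Per 10000 of these, members held 24.4 and 35.4 in the sorted PTGR libraries, against 36.3 and 40.9 in the unsorted PTGR libraries and 38.1 to 46.9 in the other unsorted ones. Both sorted values thus lay below all 6 unsorted values, though replicate 2 only just. With hits kept in all totals they were 22.2 and 32.2, against 35.7 to 46.2 in the 6 unsorted libraries. The sum was 119 sorted insertions where 157 were expected, a log2 odds ratio of -0.40 (-0.67 to -0.13) that came mainly from replicate 1 (-0.68) rather than replicate 2 (-0.14). Against the unsorted PTGR libraries alone it was -0.33 (-0.63 to -0.03). The sorted activator libraries had 23.9 and 37.8 and the sorted repressor libraries 41.3 and 29.2 per 10000, from only 21 and 22 insertions. In the repressor screen Rps23rg1 alone held 10 of the 22, where 3.57 were expected, while the small subunit genes had 2 against 8.88 (-2.15, -4.16 to -0.15) and the large subunit genes 7 against 10.0 (-0.51, -1.59 to 0.56).

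Large subunit genes had 49 such PTGR insertions against 64.8 expected (-0.40, -0.82 to 0.02), with replicates at -0.29 and -0.54. Small subunit genes had 42 against 57.6 (-0.46, -0.91 to -0.0013), with replicates at -1.02 and -0.0041, so that their value rests on replicate 1. Rps23rg1 had 22 against 23.1, and Rpl39 had 7 against 9.04. Of the 82 members with such background insertions, 67 had fewer sorted PTGR insertions than expected and 15 had more. The split was 68 and 14 in the activator and 71 and 11 in the repressor screen, so it was not particular to PTGR. A count of 0 lies below any expectation, and the expected number reached 5 at only 5 members in PTGR and at 0 in the other screens. The share over all genes was not computed. Further upstream, the sorted PTGR libraries had 66.7 and 67.6 per 10000, above the unsorted PTGR libraries at 62.4 and 63.4. The other unsorted libraries had 62.8 to 66.9, but with the hits of their own screen left out rather than those of PTGR. With hits kept in all totals, the sorted PTGR values were 64.7 and 65.9, within the 60.9 to 66.0 of the 6 unsorted libraries.

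**Figure D4:**
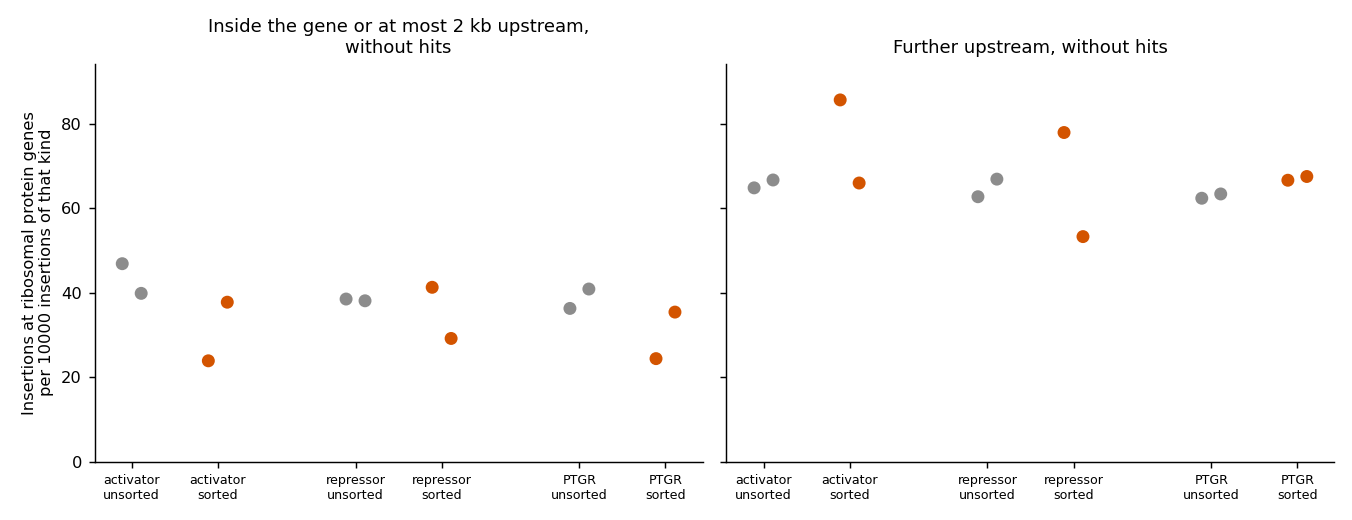
Points give the insertions at ribosomal protein genes per 10000 insertions in each of the 12 libraries (grey unsorted, orange sorted). They are split into insertions inside the gene or at most 2 kb upstream (left) and further upstream (right). The hits of each library's own screen are left out. On the left both sorted PTGR libraries (24.4 and 35.4) lie below the 6 unsorted libraries (36.3 to 46.9); on the right they lie at 66.7 and 67.6.

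Other genes of the pathway were described in the same way. Of 39 translation factor genes, 38 had a background insertion (97.4%), and of 27 genes for ribosome assembly factors 27 had one. The shares with an insertion inside or at most 2 kb upstream were 97.4% and 100%, close to that of members. Like members, both lists had a smaller share of insertions inside the gene than all genes. Unlike members, they had a smaller share over 50 kb upstream of the gene (22.2% and 20.6%, against 29.5%). Inside the gene they held 5.26 and 6.42 insertions per 10 kb of span, against 22.3 at members. None of either list passed the enrichment test in any screen. For a decrease, 0 translation factor genes of 23 passed in the activator screen. The repressor screen had 3 of 22, and PTGR 0 of 23. For ribosome assembly the counts were 0 of 16, 1 of 16 and 0 of 18. All genes had 0%, 2.91% and 0.482%. The repressor share of translation factor genes was thus above that of all genes, from only 3 genes. Whether either list differs from all genes was not tested. Their median log2 odds ratios were -0.37 and -0.44 in the activator, -1.30 and -0.62 in the repressor and -0.07 and 0.19 in the PTGR screen. For insertions inside or at most 2 kb upstream, the PTGR log2 odds ratio was -0.49 (-0.87 to -0.10) for translation factors, beside the -0.40 of the ribosomal protein genes, and -0.18 (-0.58 to 0.22) for ribosome assembly. In the repressor screen it was -1.67 (-3.09 to -0.26) for translation factors and 0.76 (0.05 to 1.48) for ribosome assembly, from 4 and 16 insertions. Rpsa and Fau, outside the name rule, had few sorted insertions, with 0 for both in the activator comparison, 1 and 1 for Rpsa in the repressor one, and 0 and 2 for Fau in the PTGR screen.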

How the data were processed

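Insertion sites of the ORFtag cassette were mapped by the authors with inverse PCR and sequencing in 12 libraries. Per the labels and the methods, reads were trimmed with Trim Galore 0.6.0, aligned to mm10 with Bowtie2, and cleared of duplicates and of low mapping quality (at most 30) with SAMtools 1.9, and each insertion was assigned to the closest downstream exon junction, first exons excluded. The deposited lists give position, strand and distance in bp (unit other), once with the strand as mapped and once reversed. The deposited tables of counts per gene, pooled over libraries, were used for gene names and as a check. Their columns of log2 odds ratios, p-values and hit calls are the authors' own comparisons and were not used.

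Each position (chromosome, coordinate, strand) was counted once per library, at most 200 kb from the exon. In the 2 unsorted repressor libraries 50.0% of lines were repeats, and in PTGR sorted replicate 2 12.8% were. The recount equalled the deposited background counts at 84 of 85 members. The deposited PTGR sorted counts equalled a count of every line (85 of 85 members), not of unique positions (64 of 85).

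Sorted replicates were summed and set against the 6 unsorted libraries by one-sided Fisher's exact tests over all genes: greater with at least 3 sorted insertions (hit: Benjamini-Hochberg adjusted p below 0.001, log2 odds ratio at least 1), and less with at least 20 summed insertions (adjusted p below 0.05). edgeR 4.0.16 (quasi-likelihood, TMM, filterByExpr, adjusted p below 0.05) compared 2 sorted with 2 unsorted libraries of a screen, and DESeq2 1.42.0 was an alternative. SE and 95% intervals of odds ratios come from counting error alone. Expected counts are the background count times the ratio of totals. Scripts were tested on simulated data. Gene spans, exons and small nucleolar RNAs are from GENCODE vM21 (all 5612 assigned acceptors of members were found there), since the methods' vM25 was not used here. Sequences are from RefSeq's GRCm38 genome.

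The members and lists were chosen with earlier results of these data known. Named were the 10 members with the most background insertions, those with 0, those called, the 3 with the most sorted insertions per screen, Rpl5, Rpl11, Rps6 and Rpl10, and members that are not textbook subunit genes. Rpl22, Rpl37a, Rpl39, Rps4x, Rps20 and Rpl36a were added for their values. Alternatives covered the background used, distance, repeated lines, minimum counts, hits left out of totals, textbook genes only, scaling, DESeq2, the replicate block and each library left out. A further gene outside the name rule is not reported here.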

Additional observations from a re-analysis of the deposited data

How the results depend on the processing

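No member was enriched in any screen under any of the 12 alternatives tried per screen, and the share of members tagged (95.3% to 97.6%) and the sense share (48.8% to 49.7%) stayed within their errors. The PTGR and activator counts of members lower in sorted cells also stayed at 0 in 11 alternatives each. The repressor call for Rpl3 was lost at a maximum distance of 50 kb (0 members), with totals without hits (0), with no minimum of summed insertions (0), near the gene alone with and without hits in the totals (0 and 0) and without either sorted replicate (0 to 0), while a minimum of 50 gave 2 members, Rpl3 and Rps14. The log2 odds ratio of Rpl3 kept its sign in every alternative run for it. These did not include insertions near the gene with totals without hits. There Rpl3 had 52 background insertions and 1 sorted insertion where 0.918 were expected, so no shortfall was seen at the gene itself.

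The summed log2 odds ratio of members in the activator screen (-0.44) was 0.15 with totals without hits and -1.46 near the gene, and ran from -0.91 (without activator sorted replicate 1) to -0.14 (without sorted replicate 2) with a library left out. The repressor value (-1.10) was -1.64 at 50 kb, 0.0027 with totals without hits, -1.65 near the gene and -0.14 near the gene with totals without hits, and ran from -1.43 to -0.92 with a library left out. The PTGR value (-0.10) was -0.23 at 50 kb, -0.52 near the gene and -0.40 near the gene with totals without hits, and ran from -0.18 (without sorted replicate 2) to -0.03 (without sorted replicate 1). The cause of the shifts at 50 kb and near the gene was not tested; leaving hits out changes the totals by construction. The settings near the gene were added after the data were seen.

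With the replicate number as a block, edgeR called 0 members in the activator, 0 in the repressor and 0 in the PTGR screen, as without the block. The labels do not say what a number marks. The deviations of same-numbered sorted and unsorted libraries correlated at 0.06, -0.03 and 0.33 across genes. Yet positions were shared mainly between libraries of the same number in the PTGR screen and, over all genes, in the activator screen. There sorted replicate 2 shared 19.2% with unsorted replicate 2 and 1.39% with unsorted replicate 1. For sorted replicate 1 the shares were 5.17% with unsorted replicate 1 and 2.35% with unsorted replicate 2. All calls went from 122 to 118, 232 to 210 and 42 to 43 with the block. The repressor edgeR count changed in 1 of its 8 alternatives, a fit with a library left out that leaves a single library in a group. The unsorted PTGR against TetR comparison gave 0 members in its 9 alternatives. Depth limits the rest: an expected count of 5 was reached by 10, 11 and 35 members in the activator, repressor and PTGR screen.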

Other observations

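Some insertion positions at members recurred between libraries of one screen. Of the 43 positions at members in activator sorted replicate 2, 13 (30.2%) were also listed in unsorted replicate 2, against 19.2% over all genes. Of the 295 in PTGR sorted replicate 1, 68 (23.1%) were listed in the unsorted library of the same number and 0 in the other. PTGR sorted replicate 2 shared 23 of 316 (7.28%) with its own number and 4 with the other. In the repressor screen 12 of the 65 positions in sorted replicate 1 (18.5%) were also in sorted replicate 2, close to the 18.8% over all genes, and activator sorted replicates shared 0 of 87 positions at members. Recurrent positions are not independent insertion events, and their part in the counts above was not tested.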
